A study of Mus musculus with 12 samples.

Results

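The kinesin family genes of the mouse testis were described at 5 ages of the first wave of spermatogenesis. The members were all genes annotated as protein-coding in GENCODE M1 whose symbol begins with *Kif* and a number or with *Kifc*, which gave 42 of the 37675 genes listed and of the 22380 protein-coding genes. The rule used names only and no measured value, so kinesins with other symbols, such as *Cenpe* and *Stard9*, are not members. Members were placed in 4 role lists from textbook knowledge, with 12 kinesins of the spindle and of cell division, 9 of the cilium and the sperm tail, 14 of transport along microtubules and 7 others. *Kif2a* and *Kif2b* were placed among the others, although their relative *Kif2c* is in the spindle list.

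Kinesins are motor proteins that hydrolyse ATP to walk along microtubules, most of them toward the plus end, and the kinesin-13 proteins take tubulin off microtubule ends instead of walking. Spindle kinesins slide, crosslink and shorten microtubules while chromosomes separate and the cell divides, and kinesin-2 motors carry intraflagellar transport trains, which build cilia and flagella. A testis in its first wave holds dividing spermatogonia, then spermatocytes in meiosis and then spermatids, which build an acrosome, the manchette (a skirt of microtubules around the nucleus) and a tail.

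Whole testes came from untreated C57BL/6NHsd mice, an inbred wild-type strain, 2 mice per age at postnatal days (PND) 7, 14, 17, 21 and 28. By the study's own account of the wave, PND 7 holds somatic cells and spermatogonia, PND 14 and 17 add spermatocytes, PND 21 adds round spermatids and PND 28 adds elongating spermatids. RNA was depleted of ribosomal RNA and sequenced as 50-base reads on the SOLiD 4, a platform that reads fragments by ligating colored probes. Each PND 7 mouse was split over 2 barcodes, which were joined here, so that 12 libraries gave 10 mice. In a whole testis, fewer cells of a type and less RNA per cell cannot be told apart.

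Levels are given as CPM, the reads of a gene relative to all reads of the library after TMM scaling, for each mouse in the order mouse 1 and mouse 2. Members are ranked against each other and their role lists summed as the deposited RPKM, which divides by exon length and library reads and holds no TMM scaling. A gene was called when edgeR's quasi-likelihood test gave a Benjamini-Hochberg adjusted p under 0.05 over the 16860 genes tested and the fitted change was at least 2-fold. Log2 fold changes are later over earlier age, ± SE, with n = 2 mice per age. Of the 42 members, 40 were tested. *Kif12* and *Kif26b* did not pass the filter on low counts.

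Total counts ran from 3994026 to 13559548 per mouse, with both ends in the PND 17 mice, and members took 0.171% to 0.303% of them. The summed CPM of 6 spermatogonia markers lay at 472 to 540 at PND 7 and 150 to 179 at PND 28. That of 6 Sertoli cell markers lay at 1496 to 1736 and 316 to 462, and it differed between the PND 14 mice, at 653 and 1411. The 7 spermatocyte markers summed to 167 to 187 at PND 7, with *Pgk2* at 0, to 1058 to 1619 at PND 14 and to 2455 to 2687 at PND 28. The 6 round spermatid markers summed to 3.90 to 9.79 at PND 7, with *Acrv1* and *Tssk2* at 0, to 161 to 228 at PND 21 and to 1079 to 1110 at PND 28. The 5 Leydig cell markers summed to 211 to 230 at PND 7 and 765 to 996 at PND 28, and they differed between the PND 21 mice, at 112 and 309. Between PND 7 and PND 28 2 of 4 peritubular myoid markers, 3 of 4 endothelial markers and both of the red blood cell markers that were tested were called lower, and the 4 macrophage markers had 0 called.

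PND 14 mouse 1 stood apart from its age. The 6 elongating spermatid markers, *Prm1*, *Prm2*, *Tnp1*, *Tnp2*, *Odf1* and *Oaz3*, summed to 212 CPM in this mouse, against 9.97 in PND 14 mouse 2 and 9.90 to 10.8 in the PND 17 mice. At PND 28 they summed to 5851 to 6874. Each of the 6 lay at 2.22% to 7.42% of its PND 28 mean in mouse 1 and at 0.0825% to 0.284% in mouse 2. Of the 6 round spermatid markers, *Acrv1* (2.25% and 0.384%), *Catsper3* (1.94% and 0.166%) and *Tssk2* (1.78% and 0.0442%) also lay over 5-fold higher in mouse 1, while *Acr*, *Izumo1* and *Spaca1* did not. Among the members, *Kif2b* and *Kif17* were high in the same mouse, with 86 and 93 counts against 7 and 15 in mouse 2, which are 3.24% and 5.70% of their PND 28 means. *Kif9* and *Kif27* were not higher in mouse 1 than in mouse 2, at 37.0 and 50.4 CPM and at 38.1 and 41.3 CPM. Results of *Kif2b* and *Kif17* that use PND 14 are therefore given with and without this mouse. The source of these reads was not tested. Members with a mean of at least 50 counts were a median of 1.36-fold apart between the PND 14 mice. At the other ages this median was 1.17-fold to 1.33-fold.

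**Figure D1:**
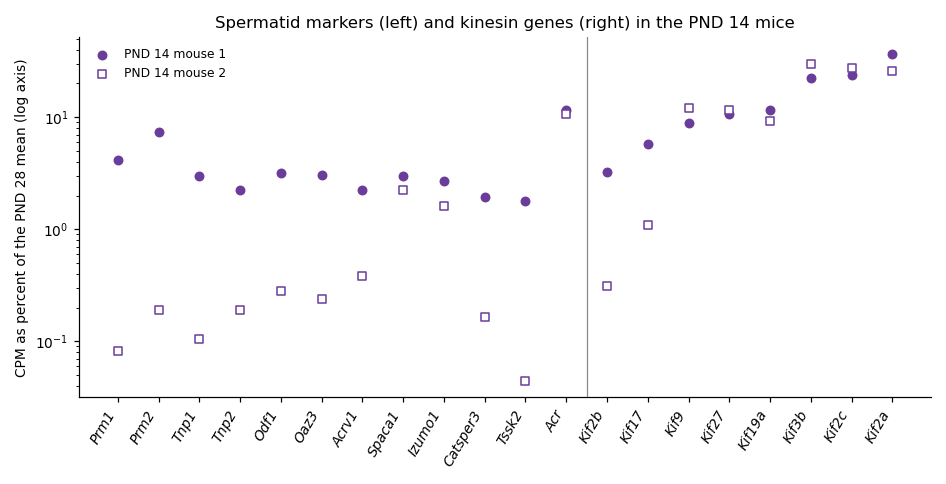
CPM of 12 spermatid markers (left of the line) and 8 kinesin genes (right) in both PND 14 mice, as percent of the PND 28 mean on a log axis. Mouse 1 (filled) lies above mouse 2 (open) for all 12 markers, most clearly for the 6 elongating spermatid markers and for *Acrv1*, *Catsper3* and *Tssk2*. Mouse 1 also lies above for *Kif2b* and *Kif17* and, by less, for *Kif19a* (11.5% and 9.16%) and *Kif2a* (36.9% and 25.7%). *Kif9*, at 8.94% and 12.2%, *Kif27*, *Kif3b* and *Kif2c* have mouse 2 above mouse 1.

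Members changed mainly in 3 of the 4 steps between neighbouring ages. From PND 7 to PND 14, 8 of the 40 members tested were called higher (20%, against 13.5% of all genes) and 2 lower (5%, against 5.43%), beside 18.9% of all genes in either direction. From PND 14 to PND 17 edgeR called 0 members, as it called 0.0% of all genes. At an unadjusted p under 0.05 edgeR had 1 of 40 members there, *Kif2b*, against 4.56% of all genes, and DESeq2 had 1 of 40, *Kif19a*, against 3.77%. Limma on log2(RPKM + 1) had 6 of 42, against 3.70%. From PND 17 to PND 21, 7 members were called higher (17.5%, against 9.29%) and 1 lower (2.5%, against 1.05%), beside 10.3% of all genes. From PND 21 to PND 28, 4 were called higher (10%, against 7.37%) and 1 lower (2.5%, against 0.297%), beside 7.66% of all genes. Neighbouring steps share the mice of the age between them.

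The study's own criteria were also applied in limma, here on log2(RPKM + 1), as the study does not name its scale. The gene totals were not those of the study, which reported far more genes for PND 14/17. These criteria called fewer genes here than edgeR in every comparison except PND 14/17, where they called 4 genes and edgeR 0. They ask for an unadjusted p of at most 0.01, a 2-fold change and a difference of 10 RPKM, and 26788 genes and all 42 members entered the test. In the step from PND 7 to PND 14 limma called 3 members higher and 0 lower, against 3.21% and 0.437% of all genes (3.65% in either direction). From PND 14 to PND 17 it called 0 members, against 0.0112% of all genes higher and 0.00373% lower (0.0149%). From PND 17 to PND 21 it called 3 higher and 0 lower, against 2.39% and 0.496% (2.88%). From PND 21 to PND 28 it called 4 higher and 0 lower, against 3.06% and 0.0896% (3.15%). For the whole span it called 9 higher and 1 lower, against 10.1% and 4.27% (14.3%), and from PND 14-17 to PND 21-28 it called 6 and 1, against 5.55% and 1.77% (7.31%).

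The counts of single steps rest on few mice. From PND 7 to PND 14, 5 members were called higher when PND 7 mouse 2 or PND 14 mouse 2 was left out, and the genes called in either direction went from 3191 to 2002 and 2085. The count called lower was 0 when PND 7 mouse 2 or either PND 14 mouse was left out, 1 for either PND 17 mouse and 4 for PND 7 mouse 1. From PND 17 to PND 21, 1 member was called higher and 0 lower without PND 17 mouse 1, PND 17 mouse 2 or PND 21 mouse 1. All genes called went down alike in these fits, from 1743 to 576, 266 and 492. From PND 21 to PND 28, 1 was called higher without PND 21 mouse 2, and 2 when either PND 28 mouse was left out, while all genes called went from 1292 to 312, 463 and 579. With RLE scaling 4 were called higher and 0 lower, and with library totals 2 and 1. All genes called there numbered 1419 and 939, of which 97.7% and 87.9% were higher, against 96.1% in the main fit. The whole span had 7 called lower without PND 28 mouse 1, against 12 with all mice, and all genes called there went from 9378 to 7898.

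Over the whole span from PND 7 to PND 28, 14 members were called higher and 12 lower, together 65% of those tested, against 55.6% of all genes (32.2% higher and 23.4% lower). With RLE scaling the split was 17 higher and 9 lower. Of all genes called, 57.9% were higher in the main fit and 63.1% with RLE scaling. Of the members called, these shares were 53.8% and 65.4%. The mean of PND 14 and 17, before most spermatids, was also compared with the mean of PND 21 and 28. Here 11 members were called higher (27.5%, against 21.0% of all genes) and 3 lower (7.5%, against 8.03%), beside 29.0% of all genes in either direction. With library totals, where 51.2% of all genes called were higher against 72.3% in the main fit, the split was 9 and 7. Without PND 14 mouse 1 it was 11 and 2. Across the 5 ages 27 members differed (67.5%, against 57.5%). A call in at least 1 comparison was reached by 27 members. The share of all genes with such a call was not counted, and PND 7/28 alone called 55.6% of them.

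The medians of the role lists lay on both sides of 0. From PND 7 to PND 28 the median log2 fold change was 0.57 for the spindle list, 2.97 for the cilium and tail list and -1.11 for the transport list, beside 0.10 for all genes tested. These medians were 0.21, 1.48 and -0.20 from PND 14-17 to PND 21-28, beside -0.05. Of the cilium and tail list 7 of 9 were called higher and 1 lower over the whole span, and of the transport list 1 of 14 was called higher and 8 lower. The spindle list had 3 of 12 called higher and 2 lower, without *Kif2a* and *Kif2b*, which were both called higher over this span. Over the same span 32.2% of all genes were called higher and 23.4% lower. These lists were drawn up with earlier results of the same mice known, so their direction is a description.

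**Figure D2:**
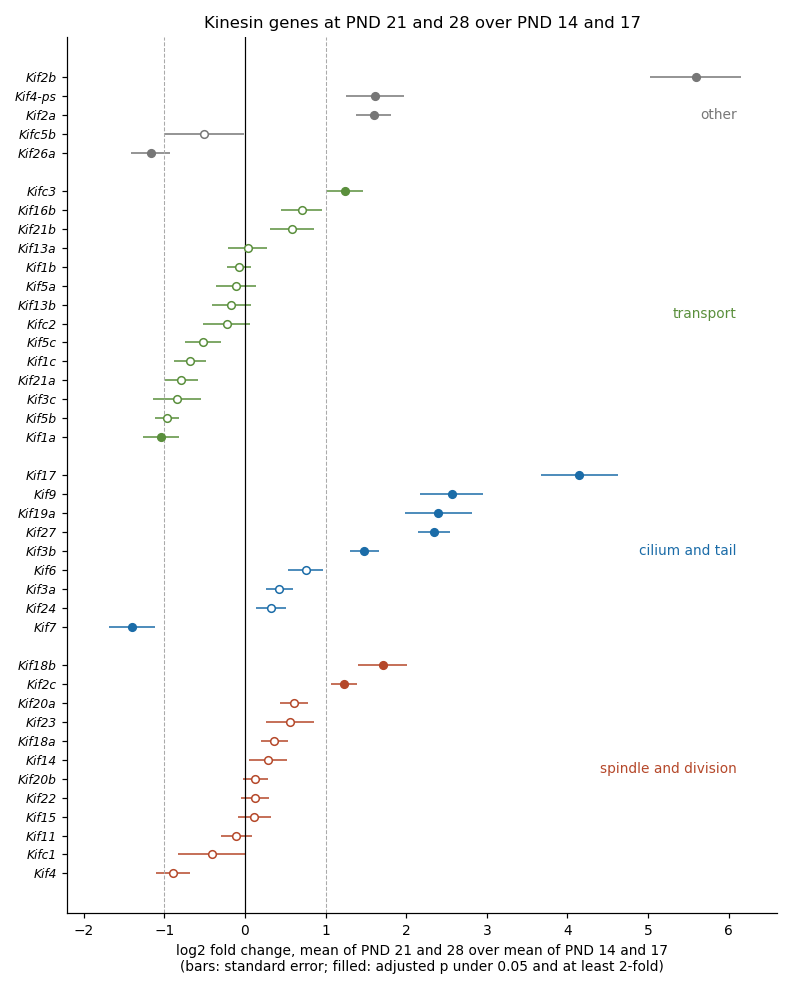
Log2 fold change (x axis) of each of the 40 kinesin genes tested, mean of PND 21 and 28 over mean of PND 14 and 17, by role list, with SE bars and filled points for called genes. *Kif2b* at 5.59 and *Kif17* at 4.15 lie farthest to the right and *Kif7* at -1.40 farthest to the left.

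Summed per length, the family went from 288 and 279 RPKM at PND 7 to 663 and 648 RPKM at PND 28. The cilium and tail list went from 31.9 and 30.9 RPKM to 280 and 265 RPKM, and the spindle list from 119 and 114 to 176 and 172. The transport list went the other way, from 125 and 122 RPKM to 59.3 and 60.04. The mice of an age did not overlap with those of the other for any of these lists, and the sums were not tested. As summed CPM, with TMM scaling, the cilium and tail list went from 167 and 163 to 1632 and 1518. In the same unit the spindle list went from 525 and 512 to 909 and 896, and the transport list from 919 and 873 to 531 and 541. The spindle sum leaves out *Kif2a*, at 27.0 and 31.95 RPKM at PND 28, and *Kif2b*, at 108.2 and 108.1 RPKM. The order of the lists at PND 28 depends on where these genes are placed. At PND 21 the mice were apart, with 205 and 141 RPKM for the cilium and tail list.

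**Figure D3:**
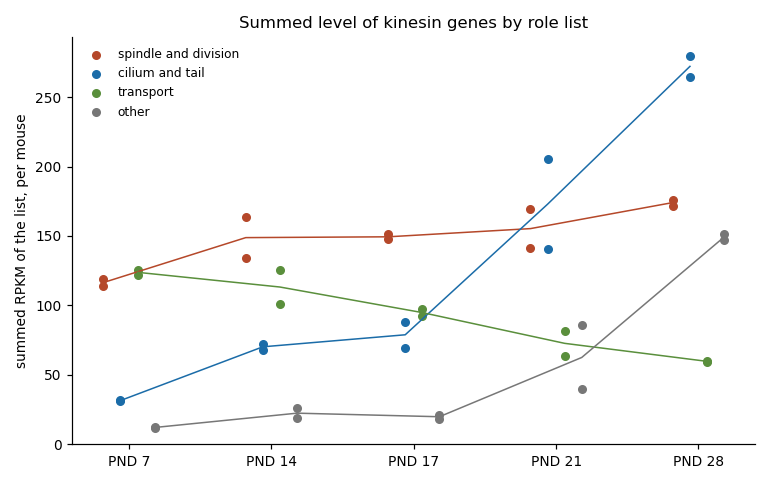
Summed RPKM (y axis) of each role list in each of the 10 mice (points) with the mean of both mice of an age (lines). The cilium and tail list ends at 280 and 265 RPKM, the spindle list at 176 and 172, the list of other kinesins at 147 and 151 and the transport list at 59.3 and 60.04.

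The order of the members changed with age. *Kif5b*, the heavy chain of conventional kinesin that carries organelles and mRNA in most cells, had the highest level at PND 7 with a mean of 48.7 RPKM, and *Kif20a* followed at 18.7. At PND 28 the first 5 were *Kif2b* at 108 RPKM, *Kif9* at 77.9, *Kif27* at 68.6, *Kif3b* at 66 and *Kif20a* at 63.4. *Kif2b* was last of the 42 at PND 7, with 0 counts in both mice, and first at PND 28. *Kif5b* made up 17.2% of the family's summed RPKM in both PND 7 mice and 2.39% and 2.42% at PND 28. By mean CPM, 18 members were highest at PND 7 and 16 at PND 28, while 5 were highest at PND 21, 2 at PND 14 and 1 at PND 17. Of the 14 transport kinesins 11 were highest at PND 7, and of the 9 of the cilium and tail 7 were highest at PND 28.

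Of the 12 spindle kinesins 6 were called in no comparison, a share that was not counted for all genes. Over PND 7/28 alone 5 of the 12 were called (41.7%, against 55.6% of all genes). *Kif11*, the motor that pushes spindle poles apart, had 78.7 and 79.4 CPM at PND 7, 66.4 and 94.6 at PND 14, 78.3 and 86.2 at PND 17, 107 and 66 at PND 21, and 71.4 and 60.1 at PND 28. All 10 mice lay between 60.1 and 107 CPM, and no comparison was called for it (log2 fold change -0.26 ± 0.27 from PND 7 to PND 28). *Kif20b*, which acts late in cytokinesis, had a log2 fold change of 0.30 ± 0.22 over the same span, and *Kif15*, a second spindle-pole motor, had 0.95 ± 0.29. *Kif18a*, which damps chromosome movement at the metaphase plate, *Kif22*, a motor on chromosome arms, and *Kif14*, a cytokinesis motor, had 0.91, 0.84 and -0.72. None of these 6 was called with all mice, and leaving out a single mouse brought 4 of them over the threshold in this span. *Kif15* had 1.37 without PND 7 mouse 1 and 1.08 without PND 28 mouse 1, *Kif14* had -1.06 without PND 7 mouse 1, *Kif18a* had 1.11 without PND 7 mouse 2, and *Kif22* had 1.00 without PND 28 mouse 2. In the step from PND 7 to PND 14, *Kif14* (-1.25) and *Kif15* (1.01) were also called without PND 7 mouse 1.

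The spindle kinesins that rose did so at different ages. *Kif2c*, a kinesin-13 that frees wrongly attached kinetochore microtubules, had 29.98 and 23.2 CPM at PND 7, 34.1 and 39.5 at PND 14, 35.6 and 28.5 at PND 17, 43.8 and 46.1 at PND 21, and 132 and 157 at PND 28. The PND 28 mice lay above all others, and the rise came in the last step (PND 21/28 log2 fold change 1.68 ± 0.23, adjusted p = 0.002). Over the whole span it rose 5.43-fold (adjusted p = 1.03e-05), and from PND 14-17 to PND 21-28 it rose 2.34-fold (adjusted p = 0.000176; 0.97 on the log2 scale, below the minimum, with library totals). *Kif20a*, which moves Aurora B to the midzone of the dividing cell, had 76.9 and 58.5 CPM at PND 7, 128 and 181 at PND 14, 182 and 160.1 at PND 17, 202 and 217 at PND 21, and 322 and 259 at PND 28. Its PND 7 mice were lowest and its PND 28 mice highest, and it was called in the first step (log2 fold change 1.19 ± 0.25, adjusted p = 0.00716) and over the whole span (log2 fold change 2.102 ± 0.25, adjusted p = 4.24e-05). The call of the first step was lost without PND 7 mouse 2 (1.01) or PND 14 mouse 2 (0.90). Of the exon bases of *Kif20a*, 32.3% overlap *Cdc23* on the opposite strand, and whether counting used strand is not stated.

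*Kif18b*, which shortens astral microtubules together with the *Kif2c* protein, had 13.9 and 6.04 CPM at PND 7, 6.81 and 8.0 at PND 14, 6.47 and 9.66 at PND 17, 20.7 and 24.3 at PND 21, and 34 and 21 at PND 28. All 4 mice of PND 21 and 28 lay above all 6 younger mice, and it rose 3.26-fold from PND 14-17 to PND 21-28 (log2 fold change 1.71 ± 0.31, adjusted p = 0.0011). It was also called from PND 17 to PND 21 (log2 fold change 1.51 ± 0.43, adjusted p = 0.0463) and over the whole span (log2 fold change 1.46 ± 0.42, adjusted p = 0.0108). The step from PND 17 to PND 21 was lost without any one mouse of PND 17, 21 or 28, with values from 1.22 to 1.79, and with library totals (1.40). The whole span was lost without PND 7 mouse 2 (0.99) or PND 28 mouse 1 (1.07), and without PND 7 mouse 1 it was 2.21.

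Called lower at a later age were 3 members of the spindle list. *Kif4*, a chromokinesin on the X chromosome that limits the overlap of midzone microtubules, had 48.2 and 51.8 CPM at PND 7, 29.2 and 41.2 at PND 14, 33.5 and 46.1 at PND 17, 15.7 and 19.9 at PND 21, and 18.1 and 27.2 at PND 28. All 4 mice of PND 21 and 28 lay below the 6 younger mice. It fell from PND 17 to PND 21 (log2 fold change -1.15 ± 0.30, adjusted p = 0.0342) and over the whole span (log2 fold change -1.15 ± 0.30, adjusted p = 0.00594). The step was lost without PND 17 mouse 1 (-1.37), PND 17 mouse 2 (-0.91), PND 21 mouse 1 (-0.98) or PND 21 mouse 2 (-1.33), and the span without PND 28 mouse 1 (-0.87) and, at -0.99, with RLE scaling or DESeq2. From PND 14-17 to PND 21-28 its value was -0.90 ± 0.21 and not called, and it was called when PND 17 mouse 1 (-1.01) or PND 28 mouse 2 (-1.05) was left out. Of its exon bases 15.1% overlap *Pdzd11* on the opposite strand.

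*Kif23*, a subunit of centralspindlin that is needed for cytokinesis, had 45.4 and 62.1 CPM at PND 7, 21.6 and 21.9 at PND 14, 18 and 25.6 at PND 17, 46.9 and 23.6 at PND 21, and 18.1 and 40.3 at PND 28. The PND 7 mice lay above those of PND 14 and 17, the PND 28 mice were 2.23-fold apart, and the gene fell from PND 7 to PND 14 (log2 fold change -1.30 ± 0.41, adjusted p = 0.0447). That call was lost without PND 7 mouse 2 (-1.05), PND 14 mouse 1 (-1.32), PND 14 mouse 2 (-1.33), PND 17 mouse 1 (-1.28) or PND 17 mouse 2 (-1.28) and, at -1.21, with library totals. Over the whole span it was not called (log2 fold change -0.89 ± 0.41, adjusted p = 0.0799), and without PND 28 mouse 2 it was, at -1.55. *Kifc1*, a minus-end motor that focuses spindle poles and is known from the manchette and acrosome of spermatids, had 6.1 and 9.66 CPM at PND 7, 4.72 and 3.94 at PND 14, 2.51 and 1.93 at PND 17, 1.19 and 3.14 at PND 21, and 1.91 and 3.23 at PND 28. Its PND 7 mice were highest, and it fell over the whole span (log2 fold change -1.64 ± 0.57, adjusted p = 0.0272). The call was lost without PND 7 mouse 2 (-1.29), PND 28 mouse 1 (-1.27) or PND 28 mouse 2 (-2.01).

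**Figure D4:**
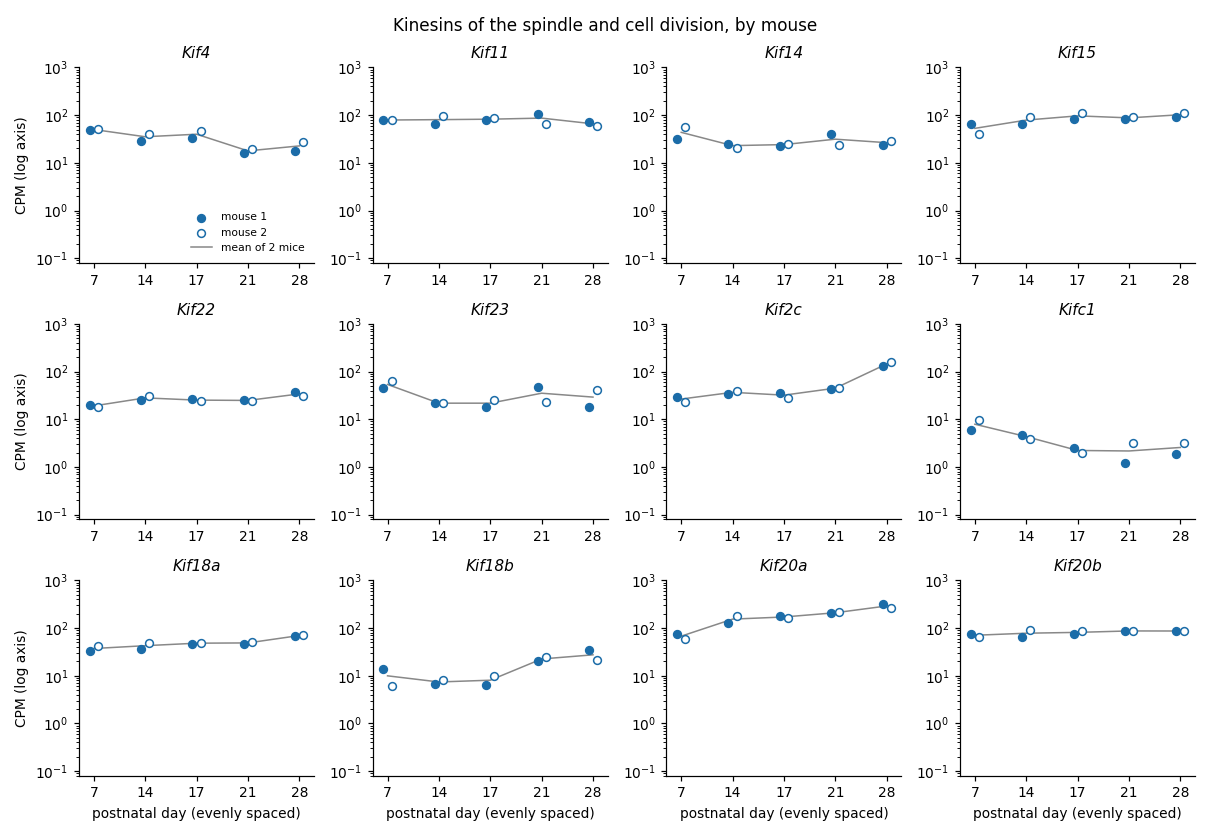
CPM on a log axis of the 12 spindle and division kinesins at 5 ages (evenly spaced) in mouse 1 (filled) and mouse 2 (open), with the mean of both. *Kif11* and *Kif20b* stay within 60.1 to 107 CPM, *Kif2c* steps up to 132 and 157 CPM at PND 28, and *Kif4* steps down to 15.7 and 19.9 CPM at PND 21.

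*Kifc1* and *Kifc5b* are near copies of each other, both on chromosome 17, and reads of 1 could be counted for the other. Their aligned coding sequences were 98.8% identical, with 24 bases different and an identical run of 268 bases. Of the 50-base windows of their exons, 59.9% and 61.8% occur once in the mm9 genome, and the authors counted unique reads. A stretch of 90 bases that sets them apart is shown with the 5 different bases in capitals, as coding bases 33 to 122 of *Kifc1* and 30 to 119 of *Kifc5b*.
Kifc1: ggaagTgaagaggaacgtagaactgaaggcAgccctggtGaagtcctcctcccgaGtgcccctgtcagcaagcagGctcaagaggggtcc
Kifc5b: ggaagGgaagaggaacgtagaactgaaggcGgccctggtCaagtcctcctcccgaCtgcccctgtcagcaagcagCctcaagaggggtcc
*Kifc5b* lay between 1.09 and 3.62 CPM in all 10 mice and was not called (log2 fold change -0.39 ± 0.69, adjusted p = 0.646 from PND 7 to PND 28). The values of both genes are uncertain for this reason.

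The spindle and midzone genes that work with these motors were read from a list of 20, of which 19 were tested. From PND 7 to PND 14, 7 were called higher and 1 lower, from PND 17 to PND 21 2 were called higher, and over the whole span 9 were called higher and 1 lower. Of all genes 13.5%, 9.29% and 32.2% were called higher in these comparisons. The 3 with the largest change were *Ccnb2* (cyclin B2), *Aurka* (Aurora A) and *Plk1* (Polo-like kinase 1), 3 regulators of entry into and passage through division. *Ccnb2* had 20.9 and 18 CPM at PND 7, 55.5 and 85.2 at PND 14, 85.9 and 69.1 at PND 17, 114 and 150.4 at PND 21, and 262 and 229.7 at PND 28, a 12.6-fold rise from PND 7 to PND 28 (adjusted p = 2.24e-06). *Aurka* was at 11.7 and 12.1 CPM at PND 7, 33.1 and 24.9 at PND 17 and 117 and 82.4 at PND 21, and rose 3.42-fold in the last of these steps (adjusted p = 0.00372). *Plk1* was at 7.87 and 7.25 CPM at PND 17 and 57.2 and 45.2 at PND 28. The median log2 fold change of the list over the whole span was 0.92, beside 0.57 for the spindle kinesins and 0.10 for all genes. The gene called lower was *Aurkb* (Aurora B), with -1.07 ± 0.33 in the first step and -1.04 ± 0.33 over the span.

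The kinesins of the cilium and tail rose in most cases, beside the rise of the spermatocyte and spermatid markers, whose part in it was not tested. *Kif9*, a motor of the axoneme that is needed for a normal beat of the sperm tail, lies on chromosome 9 (bases 110379462 to 110427683, plus strand, 34 exons, mm9). It had 2.5 and 0 CPM at PND 7, 37 and 50.4 at PND 14, 83.9 and 47.3 at PND 17, 268 and 220.2 at PND 21, and 446 and 382 at PND 28. The later age lay above the earlier in every mouse at each step except PND 14/17. At PND 7 its 25 counts were all in mouse 1, 9 and 16 in its 2 barcodes, and mouse 2 had 0. It rose 31.6-fold from PND 7 to PND 14 (log2 fold change 4.98 ± 0.70, adjusted p = 0.000616) and 299-fold over the whole span (log2 fold change 8.23 ± 0.76, adjusted p = 6.52e-06). Both depend on PND 7 mouse 1. With mouse 2 left out they were 17.5-fold and 165-fold. With mouse 1 left out, against a floor of 3 counts in mouse 2, they were at least 109-fold and at least 1029-fold.

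*Kif9* rose again at the spermatid ages, 5.91-fold from PND 14-17 to PND 21-28 (log2 fold change 2.56 ± 0.39, adjusted p = 0.000393). The step from PND 17 to PND 21 alone (log2 fold change 1.88 ± 0.54, adjusted p = 0.0458) was lost without any one mouse of PND 17, 21 or 28, with values from 1.54 to 2.37, and with DESeq2 and library totals. Exons with more than 10 reads numbered 8 to 28 of 34 at PND 14 and 17 and 28 to 32 at PND 21 and 28, in libraries of unequal depth.

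*Kif27*, a relative of *Kif7* known from motile cilia, rose in 3 of the 4 steps. It had 18 and 12.5 CPM at PND 7, 38.1 and 41.3 at PND 14, 47.8 and 36.5 at PND 17, 147 and 95.1 at PND 21, and 347 and 372 at PND 28. The mice of PND 7 lay below those of PND 14 and 17, these below PND 21 and these below PND 28, without overlap. It was called from PND 7 to PND 14 (log2 fold change 1.38 ± 0.28, adjusted p = 0.00614), from PND 17 to PND 21 (log2 fold change 1.51 ± 0.27, adjusted p = 0.00735) and from PND 21 to PND 28 (log2 fold change 1.57 ± 0.27, adjusted p = 0.00504). Over the whole span it rose 23.5-fold (adjusted p = 9.25e-07), and from PND 14-17 to PND 21-28 5.08-fold (adjusted p = 1.23e-05). The first step was lost without PND 7 mouse 2 (1.15), the next without PND 17 mouse 2 (1.34) or PND 21 mouse 1 (1.17) and the last without PND 21 mouse 2 (1.28). The 7.44% of its exon bases that overlap *Gm16613* lie on the opposite strand.

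*Kif17*, a homodimeric kinesin-2 that in male germ cells also carries a coactivator of the transcription factor CREM, rose late. It had 6.1 and 1.61 CPM at PND 7, 10.2 and 1.97 at PND 14, 2.3 and 3.62 at PND 17, 34.5 and 26 at PND 21, and 189 and 169 at PND 28. PND 7 mouse 1 and PND 14 mouse 1 were above the 4 other mice of PND 7, 14 and 17, and all mice of PND 21 and 28 were above these. It rose from PND 17 to PND 21 (log2 fold change 3.44 ± 0.69, adjusted p = 0.0112), from PND 21 to PND 28 (log2 fold change 2.57 ± 0.59, adjusted p = 0.0221) and over the whole span (log2 fold change 5.49 ± 0.69, adjusted p = 5.68e-05). From PND 14-17 to PND 21-28 it rose 17.7-fold (log2 fold change 4.15 ± 0.48, adjusted p = 6.59e-05), and 31.7-fold without PND 14 mouse 1 (adjusted p = 1.33e-05). From PND 7 to PND 14 it was not called (log2 fold change 0.64 ± 0.66, adjusted p = 0.509), and without PND 14 mouse 1 the log2 fold change turned from 0.64 to -1.05 (adjusted p = 0.323).

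The calls of *Kif17* in single steps depend on single mice. From PND 17 to PND 21 the call was lost without PND 17 mouse 1 (3.05), PND 17 mouse 2 (3.70) or PND 21 mouse 1 (3.24). From PND 21 to PND 28 it was lost without PND 21 mouse 1 (2.79), PND 21 mouse 2 (2.37), PND 28 mouse 1 (2.47) or PND 28 mouse 2 (2.65) and, at 2.33, with library totals. The rise over the whole span was 111-fold when PND 7 mouse 1 was left out and 29.3-fold when PND 7 mouse 2 was. At PND 28, 22 and 21 of its 24 exons had more than 10 reads, against 0 to 8 at the earlier ages.

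*Kif3b*, a motor subunit of the kinesin-2 that drives intraflagellar transport, had 49.1 and 62.5 CPM at PND 7, 97.9 and 130.4 at PND 14, 160.2 and 129 at PND 17, 326 and 261 at PND 21, and 475 and 400.4 at PND 28. It rose 7.85-fold over the whole span (log2 fold change 2.97 ± 0.26, adjusted p = 5.3e-06) and 2.79-fold from PND 14-17 to PND 21-28 (log2 fold change 1.48 ± 0.18, adjusted p = 8.31e-05). The mice of PND 7, of PND 14 and 17, of PND 21 and of PND 28 did not overlap. It was called by a small margin from PND 7 to PND 14 (log2 fold change 1.03 ± 0.25, adjusted p = 0.0146) and from PND 17 to PND 21 (log2 fold change 1.02 ± 0.25, adjusted p = 0.0248). The first was lost without PND 7 mouse 1 (0.90) or PND 14 mouse 2 (0.80) and the second without PND 17 mouse 1 (1.19), PND 17 mouse 2 (0.87) or PND 21 mouse 1 (0.86) and, at 0.93 and 0.94, with library totals and with no filter on low counts. Its partner motor *Kif3a* was at 53.7 and 54.5 CPM at PND 7 and at 74.8 and 98.8 at PND 28 and was not called (log2 fold change 0.68 ± 0.24, adjusted p = 0.0275), being below the 2-fold minimum.

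The third subunit of this motor, *Kifap3*, rose with *Kif3b*. *Kifap3* had 23.5 and 36.2 CPM at PND 7, 66.7 and 58.9 at PND 14, 57.5 and 72.9 at PND 17, 176 and 113 at PND 21, and 439 and 459.6 at PND 28. It rose 15.1-fold from PND 7 to PND 28 (adjusted p = 2.41e-06) and was called in 3 of the 4 steps, PND 7/14, PND 17/21 and PND 21/28. Of the list of 18 intraflagellar transport genes found, 13 were called higher from PND 7 to PND 14, 2 from PND 17 to PND 21, 0 from PND 21 to PND 28 and 16 over the whole span, with 0 called lower. Of all genes 13.5%, 9.29%, 7.37% and 32.2% were called higher. The median log2 fold change of the list was 1.24 in the first step and 2.63 over the span, beside 0.11 and 0.10 for all genes. *Rabl5*, the IFT22 protein of the train, rose 23.2-fold over the span, *Ift172*, of complex B, 13.9-fold and *Ift140*, of complex A, 12.4-fold. *Ift172* was at 38.8 and 24.7 CPM at PND 7, 101 and 126 at PND 14, 423 and 247 at PND 21 and 448 and 434 at PND 28.

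*Kif19a*, which trims microtubule ends to set the length of cilia, had 0.5 and 0 CPM at PND 7, 2.31 and 1.84 at PND 14, 7.38 and 2.42 at PND 17, 15.5 and 15 at PND 21, and 20.5 and 19.6 at PND 28. All mice of PND 21 and 28 lay above the younger ones, and it rose 5.28-fold from PND 14-17 to PND 21-28 (log2 fold change 2.40 ± 0.41, adjusted p = 0.000874). Over the whole span it rose 67.8-fold (log2 fold change 6.08 ± 0.77, adjusted p = 5.94e-05), from 5 counts in PND 7 mouse 1 and 0 in mouse 2. Without mouse 2 this was 38.9-fold, and without mouse 1, against a floor of 3 counts, at least 49.9-fold. The first step (log2 fold change 2.82 ± 0.84, adjusted p = 0.0348) was lost in 7 of the fits that left out a mouse, among them without PND 7 mouse 2 (2.03), PND 14 mouse 1 (2.61) and PND 14 mouse 2 (2.95). The other 4 left out a mouse of PND 21 or 28, with adjusted p from 0.0508 to 0.0549. From PND 17 to PND 21 its value was 1.54 ± 0.56 and not called, and it was called when either PND 7 mouse was left out (1.52).

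*Kif24*, which shortens centriolar microtubules and holds back cilium assembly, had 15.2 and 11.4 CPM at PND 7, 42 and 35.6 at PND 14, 37.3 and 47.3 at PND 17, 76.2 and 51.8 at PND 21, and 38.8 and 41.5 at PND 28. The PND 7 mice were lowest and PND 21 mouse 1 highest. It rose 2.91-fold from PND 7 to PND 14 (log2 fold change 1.54 ± 0.28, adjusted p = 0.003) and was called over the whole span (log2 fold change 1.59 ± 0.28, adjusted p = 0.000556), with no call in the later steps. *Kif6*, a kinesin of motile cilia, had 8.8 and 11.5 CPM at PND 7, 12.3 and 18.9 at PND 14, 25.3 and 22 at PND 17, 25.5 and 33.5 at PND 21, and 38.6 and 32.3 at PND 28 and rose 3.5-fold over the whole span (adjusted p = 0.0005) with no single step called. *Kif7*, the cilium tip protein that organizes Hedgehog signalling, was the only member of this list called lower. *Kif7* had 13.6 and 8.85 CPM at PND 7, 9.89 and 9.45 at PND 14, 6.68 and 7.49 at PND 17, 4.29 and 4.71 at PND 21, and 2.04 and 2.3 at PND 28, a 5.18-fold fall over the whole span (log2 fold change -2.37 ± 0.41, adjusted p = 0.000546) and a 2.64-fold fall from PND 14-17 to PND 21-28 (log2 fold change -1.40 ± 0.29, adjusted p = 0.00246). The PND 7 and PND 14 mice overlapped, the PND 17 mice lay below these, the PND 21 mice below PND 17 and the PND 28 mice below PND 21. Of its exon bases 18.2% overlap genes of the opposite strand.

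**Figure D5:**
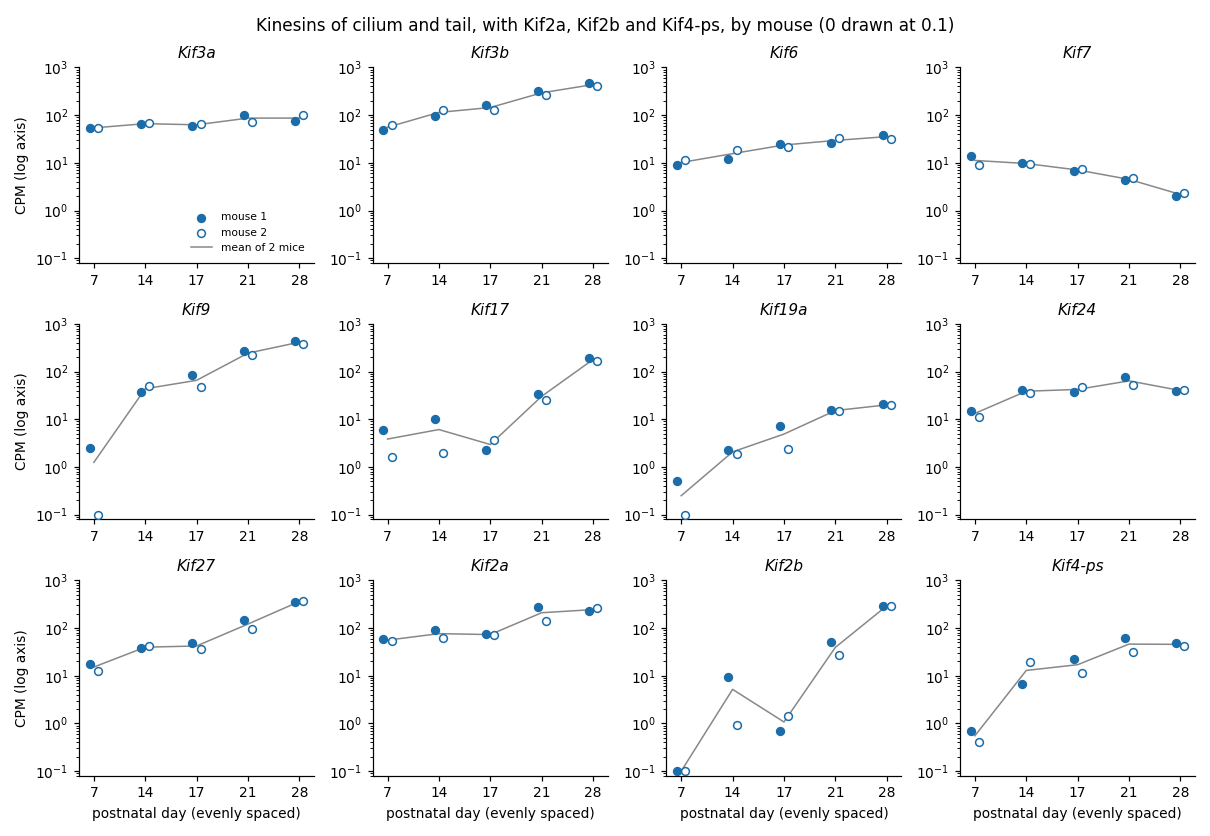
CPM on a log axis (0 drawn at 0.1) of the 9 kinesins of the cilium and tail and of *Kif2a*, *Kif2b* and *Kif4-ps* at 5 ages (evenly spaced) in mouse 1 (filled) and mouse 2 (open), with the mean of both. *Kif9*, *Kif27*, *Kif3b* and *Kif2b* end between 289 and 475 CPM at PND 28, while *Kif7* ends at 2.04 and 2.30 CPM and *Kif2b* is at 0 at PND 7.

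The kinesin-13 genes *Kif2a* and *Kif2b* rose with the spermatid ages as did *Kif2c*. *Kif2b*, a microtubule depolymerase of a single exon on chromosome 11 (bases 91436629 to 91438923, minus strand, mm9), had 0 and 0 CPM at PND 7, 9.45 and 0.919 at PND 14, 0.696 and 1.45 at PND 17, 51.5 and 27.2 at PND 21, and 294 and 289 at PND 28. In counts this was 0 and 0 at PND 7, 86 and 7 at PND 14, 10 and 6 at PND 17, 216 and 156 at PND 21 and 2162 and 1256 at PND 28. PND 14 mouse 1 was the only mouse before PND 21 above 1.45 CPM. All 50-base windows of its exon occur once in the genome.

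*Kif2b* rose from PND 17 to PND 21 (log2 fold change 5.40 ± 0.87, adjusted p = 0.00565) and from PND 21 to PND 28 (log2 fold change 2.90 ± 0.64, adjusted p = 0.0218). From PND 14-17 to PND 21-28 it rose 48.1-fold (log2 fold change 5.59 ± 0.57, adjusted p = 5.01e-05), and 116-fold without PND 14 mouse 1 (adjusted p = 2.1e-06). Against a floor of 3 counts over both PND 7 mice, the PND 28 mean was at least 1698-fold higher and the PND 14 mean at least 30.2-fold higher, or at least 5.35-fold when only PND 14 mouse 2 is taken. The PND 7/14 step was called with all mice (adjusted p = 0.00986) and without PND 14 mouse 1 (adjusted p = 0.0332). From PND 14 to PND 17 the value was -2.52 ± 0.91 and not called. It was -0.02 without PND 14 mouse 1 and was called, at -3.38, without PND 14 mouse 2. The step from PND 17 to PND 21 was lost without PND 17 mouse 1 (4.74), and the last step without PND 21 mouse 1 (3.43), PND 21 mouse 2 (2.50), PND 28 mouse 1 (2.87) or PND 28 mouse 2 (2.91) and with DESeq2 and library totals.

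*Kif2a*, which shortens microtubules at spindle poles and in axons, had 58.3 and 53.4 CPM at PND 7, 90.1 and 62.7 at PND 14, 73.6 and 72.5 at PND 17, 277 and 143 at PND 21, and 226 and 263 at PND 28. All mice of PND 21 and 28 were above the younger ones, and it rose 3.03-fold between these groups (log2 fold change 1.60 ± 0.22, adjusted p = 0.000193) and 4.37-fold over the whole span (log2 fold change 2.13 ± 0.31, adjusted p = 0.000172). The step from PND 17 to PND 21 (log2 fold change 1.52 ± 0.31, adjusted p = 0.0116) was lost without PND 17 mouse 1 (1.53), PND 17 mouse 2 (1.51) or PND 21 mouse 1 (0.97), and the PND 21 mice were 277 and 143 CPM. Of its exon bases 17.4% overlap *Dimt1* on the opposite strand, and 87.0% of its windows are unique in the genome.

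*Kif4-ps* carries the name of a pseudogene but is annotated as protein-coding, as a single exon of 3669 bases on chromosome 12 (bases 102383824 to 102387492, plus strand, mm9). Its reading frame has 0 stops before its end. It had 0.7 and 0.402 CPM at PND 7, 6.7 and 19.2 at PND 14, 22.8 and 11.4 at PND 17, 61.2 and 31.1 at PND 21, and 49.4 and 41.7 at PND 28. The PND 7 mice had 7 and 3 counts, and the gene rose 22-fold to PND 14 (log2 fold change 4.46 ± 0.70, adjusted p = 0.00127; 3.51 without PND 14 mouse 2). From PND 14-17 to PND 21-28 it rose 3.05-fold (log2 fold change 1.61 ± 0.36, adjusted p = 0.00392) and over the whole span 78.1-fold (adjusted p = 2.37e-05), while *Kif4* fell over the same span. From PND 17 to PND 21 its value was 1.39 and not called, and it was called without PND 14 mouse 1 (1.40) or PND 14 mouse 2 (1.40).

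Reads of *Kif4* and *Kif4-ps* can be told apart at most places. The coding sequences were 80.4% identical over 3655 aligned bases, 15 of 3314 aligned 50-base windows were identical, and 99.9% and 99.8% of their windows are unique in the genome. The first 90 coding bases of each are shown, with the 20 bases that differ in capitals.
Kif4: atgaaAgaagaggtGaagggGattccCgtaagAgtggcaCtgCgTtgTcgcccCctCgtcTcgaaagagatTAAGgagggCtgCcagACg
Kif4-ps: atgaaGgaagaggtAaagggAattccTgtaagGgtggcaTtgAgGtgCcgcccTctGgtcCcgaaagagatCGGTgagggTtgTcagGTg

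Transport kinesins were mostly lower at later ages, beside the fall of the Sertoli cell, spermatogonia, myoid and endothelial markers given above, whose part in it was not tested. *Kif5b* had 345 and 329 CPM at PND 7, 281 and 304 at PND 14, 274 and 275 at PND 17, 130.3 and 178 at PND 21, and 139 and 135 at PND 28. The 4 mice of PND 21 and 28 lay below the 6 younger mice, and the gene fell 2.46-fold over the whole span (log2 fold change -1.30 ± 0.22, adjusted p = 0.000406), a call kept whichever mouse was left out. From PND 14-17 to PND 21-28 its value was -0.96 ± 0.15 and not called, and it was called without PND 21 mouse 2 (-1.09), as was the step from PND 17 to PND 21 (-1.08). Of its 50-base exon windows 79.5% are unique in the genome.

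*Kif1a*, a carrier of synaptic vesicle precursors in neurons, had 34.5 and 35 CPM at PND 7, 34.2 and 24.1 at PND 14, 18.2 and 22 at PND 17, 9.53 and 12.7 at PND 21, and 9.93 and 15 at PND 28. All 4 mice of PND 21 and 28 were below the others, and it fell 2.82-fold over the whole span (log2 fold change -1.49 ± 0.31, adjusted p = 0.00179). It passed the 2-fold minimum closely from PND 14-17 to PND 21-28 (log2 fold change -1.04 ± 0.22, adjusted p = 0.00331) and was below it without PND 14 mouse 1 (-0.89), PND 17 mouse 2 (-0.98), PND 21 mouse 1 (-0.94) or PND 28 mouse 1 (-0.90) and with RLE or DESeq2 scaling (-0.90). *Kif13a*, which carries receptors out of endosomes, had 21.6 and 33.1 CPM at PND 7, 11.3 and 10.9 at PND 14, 8.08 and 8.94 at PND 17, 12.6 and 8.9 at PND 21, and 9.39 and 8.98 at PND 28. Both PND 7 mice lay above all others, and the fall was in the first step (log2 fold change -1.30 ± 0.32, adjusted p = 0.0168). That call was lost without PND 7 mouse 2 (-0.95), PND 14 mouse 1 (-1.36) or PND 14 mouse 2 (-1.29), while the call over the whole span held without any single mouse (log2 fold change -1.57 ± 0.33, adjusted p = 0.00185).

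*Kif13b*, a binding partner of the scaffold protein Dlg1, had 59.8 and 76.3 CPM at PND 7, 64.2 and 33.2 at PND 14, 31.7 and 38.9 at PND 17, 58.6 and 34.2 at PND 21, and 29.5 and 29.3 at PND 28. It fell over the whole span (log2 fold change -1.21 ± 0.35, adjusted p = 0.0108), and the call was lost without PND 7 mouse 2 (-1.03), PND 28 mouse 1 (-1.20) or PND 28 mouse 2 (-1.18). *Kifc2*, a minus-end motor known from neurons, had 12 and 9.52 CPM at PND 7, 5.93 and 6.95 at PND 14, 4.04 and 4.83 at PND 17, 4.53 and 4.89 at PND 21, and 5.17 and 3.46 at PND 28. The PND 7 mice were highest, and the fall over the whole span (log2 fold change -1.30 ± 0.40, adjusted p = 0.0153) was lost without PND 28 mouse 2 (-1.04).

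Of the transport kinesins, *Kif1c*, *Kif21a* and *Kif3c* were also called lower over the whole span. *Kif1c* (Golgi and cortical transport) had -1.18 ± 0.29, *Kif21a* (which slows microtubule growth at the cortex) -1.06 ± 0.29 and *Kif3c* (a neuronal kinesin-2) -1.16 ± 0.40. The call of *Kif1c* was lost without PND 7 mouse 1 (-0.98) or PND 28 mouse 2 (-0.92), that of *Kif21a* without PND 7 mouse 1 (-0.91) or PND 28 mouse 1 (-1.02) and that of *Kif3c* without PND 7 mouse 1 (-0.84), PND 28 mouse 1 (-0.95) or PND 28 mouse 2 (-1.34). With RLE or DESeq2 scaling *Kif21a* (-0.90) and *Kif3c* (-0.99 and -0.997) were not called. Of the exon bases of *Kif3c*, 17.1% overlap *1110002L01Rik* on the opposite strand.

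*Kifc3*, a minus-end motor of epithelial junctions and apical transport, was the transport kinesin called higher. It had 8.0 and 6.71 CPM at PND 7, 7.91 and 12.7 at PND 14, 17.9 and 12.6 at PND 17, 22.2 and 19.7 at PND 21, and 44.4 and 40.1 at PND 28. The mice of PND 28 lay above all others, and it rose 5.72-fold over the whole span (log2 fold change 2.52 ± 0.33, adjusted p = 7.22e-05) and 2.36-fold from PND 14-17 to PND 21-28 (log2 fold change 1.24 ± 0.22, adjusted p = 0.0012). With library totals the second value was 0.99 and below the 2-fold minimum. *Kif1b*, a carrier of mitochondria and synaptic vesicle precursors, had 158 and 137 CPM at PND 7, 155 and 133 at PND 14, 113 and 125 at PND 17, 135 and 111 at PND 21, and 122 and 131 at PND 28. All 10 mice lay between 111 and 158 CPM, and it was not called in any comparison (log2 fold change -0.22 ± 0.21 over the whole span).

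The other 4 transport kinesins were not called with all mice. *Kif16b*, of early endosomes, had a log2 fold change of 0.47 ± 0.36 over the whole span, and was called from PND 17 to PND 21 without PND 21 mouse 2 (1.38). *Kif21b*, of neurons and immune cells, had -0.16 ± 0.37, and without PND 21 mouse 1 it was called lower from PND 7 to PND 14 (-1.04) and higher from PND 21 to PND 28 (1.86). The conventional heavy chains *Kif5a* and *Kif5c* had -0.82 ± 0.35 and -0.78 ± 0.31, and *Kif5c* was called without PND 28 mouse 2 (-1.11).

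The list of subunits and adaptors that tie kinesins to cargo did not move one way. It also holds the kinesin motors *Cenpe* and *Stard9*, with log2 fold changes of 0.68 and -0.41 from PND 7 to PND 28, neither called. Of 11 tested, 3 were called higher and 4 lower from PND 7 to PND 28, against 32.2% and 23.4% of all genes. *Klc1*, a light chain of conventional kinesin, was at 32.5 and 50.6 CPM at PND 7 and 8.98 and 13.6 at PND 28 and fell 3.71-fold (adjusted p = 0.000531). *Klc3*, the light chain known from the sperm midpiece, was at 0.476 and 1.92 CPM at PND 21 and 14.6 and 17.7 at PND 28, a rise of 12.6-fold in that step (adjusted p = 0.0133). *Klc2* rose 2.45-fold over the whole span, and the adaptors *Trak1*, *Trak2* and *Mapk8ip3* fell by 1.04, 1.62 and 1.36 on the log2 scale.

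*Kif26a*, a kinesin without motor activity that restrains growth factor signalling in enteric neurons, had 12.7 and 10.3 CPM at PND 7, 13.5 and 11.3 at PND 14, 10.8 and 14.3 at PND 17, 8.81 and 8.73 at PND 21, and 3.27 and 3.69 at PND 28. The PND 28 mice were lowest, the PND 21 mice lay next, and the gene fell 3.33-fold over the whole span (log2 fold change -1.73 ± 0.36, adjusted p = 0.00157) and 2.25-fold from PND 14-17 to PND 21-28 (log2 fold change -1.17 ± 0.24, adjusted p = 0.00283). The last step (log2 fold change -1.34 ± 0.37, adjusted p = 0.0475) was lost without any one mouse of PND 14, 17, 21 or 28, with values from -1.42 to -1.26, and with DESeq2, with RLE scaling and without the filter on low counts. *Kif12* had 21 counts in PND 7 mouse 2, 11 and 10 in its 2 barcodes, and 0 counts in the 9 other mice. *Kif12* was not tested in the main fit, and the filter let it in when some single mice were left out. Without PND 7 mouse 1 it was called lower at PND 14 and at PND 28 (both -7.32), on the counts of 1 mouse. Without PND 14 mouse 1 it was tested and not called from PND 7 to PND 14 (-6.35). *Kif26b* had 24 counts in PND 7 mouse 1 and 1 to 16 in the others.

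The sequence just before the transcription start was read from RefSeq promoters (GRCm38.p6), which hold 33 of the 42 members. It is shown for *Kif17*, *Kif2b* and *Kif3b*, which rose, and for the spindle motors *Kif11*, called in no comparison, and *Kif4*, which fell, because these promoters hold letters known from genes of spermatids or of the cell cycle. Each run is the 200 bases ahead of the start of the gene in RefSeq, 5′ to 3′ on the strand of the gene, and for *Kif3b* the last 21 of them lie inside the gene. Capitals mark the CRE (TGACGTCA), the CCAAT box (CCAAT, or ATTGG on the other strand) and the CHR (TTTGAA, or TTCAAA on the other strand).
Kif17, chr4:138262051-138262250, plus strand: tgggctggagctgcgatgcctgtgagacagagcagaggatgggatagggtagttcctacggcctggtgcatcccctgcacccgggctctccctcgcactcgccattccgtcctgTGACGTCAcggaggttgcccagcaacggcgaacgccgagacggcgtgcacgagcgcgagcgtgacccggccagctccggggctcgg
Kif2b, chr11:91577556-91577755, minus strand: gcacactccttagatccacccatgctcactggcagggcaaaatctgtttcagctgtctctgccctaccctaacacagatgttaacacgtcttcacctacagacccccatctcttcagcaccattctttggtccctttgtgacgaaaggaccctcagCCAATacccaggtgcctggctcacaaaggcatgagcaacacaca
Kif3b, chr2:153291216-153291415, plus strand: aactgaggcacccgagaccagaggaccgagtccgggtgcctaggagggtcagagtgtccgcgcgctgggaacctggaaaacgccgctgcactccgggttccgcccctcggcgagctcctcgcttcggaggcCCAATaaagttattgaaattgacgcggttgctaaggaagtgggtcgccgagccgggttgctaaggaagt
Kif11, chr19:37376182-37376381, plus strand: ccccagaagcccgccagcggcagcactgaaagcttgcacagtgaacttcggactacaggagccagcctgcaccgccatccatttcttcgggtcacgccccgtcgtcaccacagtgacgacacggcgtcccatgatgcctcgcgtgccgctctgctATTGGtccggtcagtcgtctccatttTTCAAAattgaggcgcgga
Kif4, chrX:100625865-100626064, plus strand: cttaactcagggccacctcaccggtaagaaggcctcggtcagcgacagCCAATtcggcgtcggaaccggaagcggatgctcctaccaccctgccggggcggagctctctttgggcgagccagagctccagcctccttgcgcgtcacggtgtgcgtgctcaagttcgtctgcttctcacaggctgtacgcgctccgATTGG
Within 250 bases before the start, the CRE was found in 2 of the 33 members, *Kif17* and *Kif5c*, which is 6.06%, and in 1.77% of 27025 genes. In *Kif17* it begins 86 bases before the start. The CCAAT box was found in 16 members (48.5%, against 37.5% of all genes), among them 7 of the 11 spindle kinesins and 5 of the 8 of the cilium and tail with a promoter. The CHR was found in 8 (24.2%, against 18.3%), among them 5 of the 11 and 1 of the 8. A match is a description of these letters and was not tested for any role in the levels above.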

How the data were processed

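LifeScope (v2.1) was used by the authors to place 50 bp SOLiD 4 reads on mm9. Their filters took out structural RNA, repetitive sequence and reads that align to many places, and the deposited count is that of unique reads in each Ensembl gene. Strand use in counting is not stated. The deposited RPKM values of the authors divide the count by exon length and by the counted reads of the library. Small numbers of reads limit low genes, and a floor of 3 counts covers counting error only.

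Counts of the barcodes of a PND 7 mouse were summed and RPKM values averaged. The 37675 genes listed were given symbols by GENCODE M1 (37310 matched). Counts were fitted with edgeR 4.0.16 in R 4.3.3 (TMM, filterByExpr, quasi-likelihood, all 10 mice, age as a factor), and 16860 genes were tested in 6 comparisons and for any difference among 5 ages. The labels call mice of an age replicates. Alternatives were DESeq2 1.42.0, limma 3.58.1 on log2(RPKM + 1) with the study's criteria (p of at most 0.01, 2-fold, 10 RPKM), other scalings and filters, a block by mouse number, the PND 7 barcodes kept apart and leaving out each mouse. A further alternative fitted only the mice of the ages compared. On simulated counts with 200 genes changed 4-fold, 177 to 198 of these and 6 to 11 unchanged genes were called per comparison. The changed genes were not of low level, rose or fell at even odds and varied by the fitted dispersion. The simulation therefore does not cover low counts, changes near 2-fold, one-sided shifts of many genes or a mouse that stands apart.

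Values in every mouse are given for spindle and for cilium and tail members called in any comparison, and for the 10 other members with the largest called change in PND 7/28 or PND 14-17/21-28. Of each partner list the 3 largest changes were named. Further members named with values per mouse, *Kif11*, *Kif1b* and *Kif3a*, were chosen after their values were seen. The members and lists were chosen with earlier results of these data known. Isoforms were not analysed here. Promoters came from RefSeq (GRCm38.p6), coding sequences from GENCODE M1, and uniqueness from every 50-base exon window searched in mm9.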

Additional observations from a re-analysis of the deposited data

Results flagged for a closer look

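Kinesin pseudogenes lay outside the members, and 2 of them had reads. *Kif22-ps* had 5 counts and *Kifc5c-ps* had 12 counts over all 10 mice, both above the 3 counts that a value of 0 allows. The series holds no control samples.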

How the results depend on the processing

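With 2 mice per age the single steps are the least stable results. Of 63 calls of a member in a comparison, 36 held whichever mouse was left out and 0 reversed under any alternative. Leaving out each mouse in turn gave, as members called higher and lower, 5 to 8 and 0 to 4 for PND 7/14, 0 to 0 and 0 to 1 for PND 14/17, 1 to 8 and 0 to 1 for PND 17/21, 1 to 4 and 0 to 1 for PND 21/28, 14 to 15 and 7 to 12 for PND 7/28, and 11 to 11 and 2 to 4 for PND 14-17/21-28. Members that differed among the 5 ages numbered 21 to 29. A left-out mouse leaves 1 mouse at its age, which is then assumed to vary like the others. Of the 63 calls, limma with the study's criteria kept 26. A fit of only the mice of the ages compared kept 56 of 62. Lost there were *Kifc1* (-1.56), *Kifc2* (-1.22), *Kif3c* (-1.08) and *Kif21a* (-0.98) for PND 7/28. *Kif3b* for PND 17/21 (0.99) and *Kif19a* for PND 7/14 (2.90) were lost as well. The losses listed gene by gene above leave out this fit and limma.

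Limma with the study's criteria called 3 members higher and 0 lower for PND 7/14, 3 and 0 for PND 17/21, 4 and 0 for PND 21/28, 9 and 1 for PND 7/28 and 6 and 1 for PND 14-17/21-28. These criteria ask for a difference of 10 RPKM, which members of low level cannot reach. Library totals gave 1 lower for PND 7/14, 4 higher for PND 17/21, 2 higher for PND 21/28 and 7 lower for PND 14-17/21-28. All genes called in these comparisons numbered 3116, 1628, 939 and 5858, of which 79.1%, 79.1%, 87.9% and 51.2% were higher. In the main fit these shares were 71.3%, 89.8%, 96.1% and 72.3%. Library totals moved the median of all genes by -0.32 (log2) for PND 7/28, and RLE scaling moved it by 0.16. Without the fold minimum 2 were lower for PND 17/21 and 8 for PND 14-17/21-28, and without the filter on low counts 1 was lower for PND 14/17. All genes called there numbered 1983, 7893 and 357, against 1743, 4894 and 0 in the main fit. The single lower call of PND 21/28, *Kif26a*, went to 0 with DESeq2, RLE scaling, no filter or the block. Where not stated, the cause was not tested.

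Mouse numbers label replicates of an age and were not used as pairs in the main fit. The deviations of mouse 1 from the age mean correlated between ages at -0.17 to 0.34. The highest value was that of PND 14 with PND 21, and its source was not tested. In the study's mapping statistics, mouse 1 of both these ages had a larger share of intron reads than mouse 2. That share was largest in both PND 7 mice. Whether it bears on the levels of the members was not tested. With mouse number as a block, 1 member was lower for PND 7/14 and 0 for PND 21/28, 25 differed among the 5 ages, and the other counts lay within 1.5 times. All genes called with the block numbered 2947 for PND 7/14 and 1123 for PND 21/28, against 3191 and 1292 in the main fit. The block also lost the calls of *Kif18b* for PND 17/21 (1.52) and *Kif23* for PND 7/14 (-1.28).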
